A study of Homo sapiens with 6 samples.

Results

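Ribosomal protein pseudogenes that were detected by RNA sequencing of T24 cells, a human bladder cancer line, are described here beside their parent genes. Of 58735 genes in the table, 1048 carry a symbol made of a ribosomal protein name, the letter P and a number, such as RPL39P3. The 95 of these with a mean over the 6 libraries of at least 0.5 FPKM (fragments per kilobase of exon, scaled per library) were kept. Of the other 953, 655 were at 0 in all 6 libraries and 298 had a lower mean. The members were thus chosen by their level in both groups together, and those levels are given as a description. The 3 libraries labelled sgOTUD1 carry the genotype OTUD1 knockout, and the 3 labelled sgNC carry an empty vector as their control. The labels do not say whether the T24 cells of a group came from separate cultures or from 1 clone, so every p-value reflects the scatter of these 6 libraries, part of which can be technical. Each library held 16697370 to 17191933 reads on genes. The FPKM scaling does not follow these totals and gives more FPKM per read in the libraries labelled sgOTUD1. RPS2P46, for example, had a mean of 3329 reads there and 3313 reads in sgNC, but 230 FPKM there and 212 FPKM in sgNC. How much of each call rests on this scaling was not tested beyond the rescalings given at the end.

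Ribosomal protein genes each encode 1 protein of the large (RPL) or small (RPS) ribosomal subunit and are among the most transcribed genes of a growing cell. Their spliced messenger RNAs have often been copied back into the genome by reverse transcription, which leaves processed pseudogenes with no introns and usually no promoter of their own. Young copies differ from the parent at few bases, so that a short read from the parent's messenger RNA can also match the copy.

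The libraries labelled sgOTUD1 did not show a lower level of OTUD1, a deubiquitinase that removes ubiquitin from proteins. Its levels were 16.2, 17.9 and 17.1 FPKM in the libraries labelled sgOTUD1 and 13.9, 15.6 and 14.6 FPKM in sgNC. By limma the log2 fold change was 0.20 (adjusted p = 0.0167). In reads the groups overlapped, at 792, 851 and 818 in the libraries labelled sgOTUD1 and 723, 821 and 749 in sgNC. After rescaling to TPM or by median ratio OTUD1 was not called. The exact permutation test, two-sided, gave p = 0.1, and 3 against 3 can give none smaller. Without replicate 2 of sgOTUD1 or replicate 1 of sgNC the adjusted p was 0.0552 and 0.0566. The direction of every comparison below therefore rests on the labels. Of 13 listed epithelial and urothelial markers 11 were tested, 7 were called higher and 2 lower. Their summed level, carried by keratins, was 5475 to 5800 FPKM in the libraries labelled sgOTUD1 and 4279 to 4655 FPKM in sgNC. CDH1 and TP63 were the 2 called lower, at limma log2 fold changes of -0.51 and -0.19. The uroplakin genes on the list were low or absent, with UPK2 at a mean of 1.67 FPKM, UPK1B at 0.099 FPKM and UPK3A at 0 throughout. Others on it were expressed, such as KRT5 at a mean of 1339 FPKM, TP63 at 38.6 FPKM and GATA3 at 4.45 FPKM. Of 5 leukocyte, 3 endothelial and 5 fibroblast markers, PTPRC, LUM and PDGFRB were at 0 in every library. Leukocyte markers summed to 0.365 to 0.490 FPKM in the libraries labelled sgOTUD1 and 1.04 to 1.37 FPKM in sgNC. Endothelial markers summed to 0.752 to 0.902 FPKM in the libraries labelled sgOTUD1 and 2.52 to 2.69 FPKM in sgNC. Fibroblast markers summed to 7.12 to 7.32 FPKM in the libraries labelled sgOTUD1 and 9.50 to 10.1 FPKM in sgNC, and the part of these markers in the results was not tested.

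The members stem from 48 parents. The symbols point to RPL23A for 7 of them, to RPS3A for 6 and to RPL13A, RPL39 and RPS7 for 4 each, and 24 parents had 1 member. Proteins of the large subunit account for 64 and those of the small subunit for 31. GENCODE 29 lists 81 as processed pseudogenes, 12 as transcribed processed and 2, RPL23AP82 and RPL32P3, as transcribed unprocessed pseudogenes. A single exon makes up 85 of them, and exon length ran from 78 to 4504 nt with a median of 497 nt. The median for the parents was 2954.5 nt, since all annotated exons are joined, and 92 of 95 members were shorter than their parent.

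The sequences that separate members from their parents are shown for 5 families in which copies of the same parent behaved differently or left their parent. Each line is the same stretch of coding strand, 5′ to 3′, from GENCODE 29 transcripts on hg38, with bases that differ from the parent in capitals. Apart from RPL41, the 99 nt shown are the gapless stretch with the most differences summed over the copies shown. They do not represent a copy as a whole, and RPS7P3, for example, had 25 mismatches over 580 aligned nt. RPL41, the smallest ribosomal protein gene, has a coding sequence that RPL41P1 (chr20:21755270-21755347, plus strand) and RPL41P5 (chr12:93083598-93083675, minus strand) hold without a difference.
RPL41P1: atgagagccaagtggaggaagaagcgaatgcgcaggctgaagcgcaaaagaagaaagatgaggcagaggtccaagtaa

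RPS7, a small subunit protein, has 4 detected copies, shown for bases 261 to 359 of its coding sequence. They lie at chr17:28468082-28468180 (RPS7P1, plus strand), chr17:46721808-46721906 (RPS7P11, minus), chr13:21628657-21628755 (RPS7P10, minus) and chr1:233289089-233289187 (RPS7P3, minus). RPS7P1 had 0 differences in this window, RPS7P11 had 1, RPS7P10 had 3 and RPS7P3 had 10.
RPS7P1: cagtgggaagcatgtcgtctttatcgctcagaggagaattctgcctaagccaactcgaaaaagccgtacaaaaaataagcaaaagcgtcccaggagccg
RPS7P11: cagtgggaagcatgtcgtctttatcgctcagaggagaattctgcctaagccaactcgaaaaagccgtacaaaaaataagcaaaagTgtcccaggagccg
RPS7P10: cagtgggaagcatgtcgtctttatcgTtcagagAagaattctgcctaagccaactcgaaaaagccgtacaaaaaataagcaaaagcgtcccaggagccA
RPS7P3: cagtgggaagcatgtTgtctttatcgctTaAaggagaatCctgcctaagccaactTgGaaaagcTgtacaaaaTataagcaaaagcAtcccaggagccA
RPS7: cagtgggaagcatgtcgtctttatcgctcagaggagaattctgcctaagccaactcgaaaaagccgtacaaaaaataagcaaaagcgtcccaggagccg

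RPL23A, a protein at the rim of the exit tunnel of the ribosome, is shown for bases 84 to 182. RPL23AP64 (chr11:119003272-119003370, minus strand) had 14 differences there and RPL23AP42 (chr3:161429416-161429514, minus) had 0.
RPL23AP64: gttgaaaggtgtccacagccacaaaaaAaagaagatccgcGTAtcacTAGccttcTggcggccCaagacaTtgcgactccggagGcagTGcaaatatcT
RPL23AP42: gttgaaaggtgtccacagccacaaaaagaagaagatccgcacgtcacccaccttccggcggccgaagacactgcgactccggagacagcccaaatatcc
RPL23A: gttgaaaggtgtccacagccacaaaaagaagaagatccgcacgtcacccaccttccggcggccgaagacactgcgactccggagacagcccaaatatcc

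RPL24, a large subunit protein, is shown for bases 19 to 117. RPL24P4 (chr6:42956612-42956710, minus strand) had 2 differences and RPL24P8 (chr9:70217213-70217311, plus) had 6.
RPL24P4: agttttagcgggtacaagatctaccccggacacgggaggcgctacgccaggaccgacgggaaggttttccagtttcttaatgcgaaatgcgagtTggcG
RPL24P8: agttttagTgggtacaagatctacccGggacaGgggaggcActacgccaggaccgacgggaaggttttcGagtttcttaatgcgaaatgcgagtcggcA
RPL24: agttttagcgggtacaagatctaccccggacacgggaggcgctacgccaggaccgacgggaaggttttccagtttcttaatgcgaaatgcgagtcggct

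RPS23, a small subunit protein close to the decoding centre, is shown for bases 175 to 273 with RPS23P8 (chrX:70963036-70963134, plus strand), which had 2 differences.
RPS23P8: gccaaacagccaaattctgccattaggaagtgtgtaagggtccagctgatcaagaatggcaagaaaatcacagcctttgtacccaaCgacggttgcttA
RPS23: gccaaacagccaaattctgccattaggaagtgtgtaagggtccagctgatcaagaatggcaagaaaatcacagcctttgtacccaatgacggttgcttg

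Taken as a sum, the members stood at 5265, 5509 and 5605 FPKM in the libraries labelled sgOTUD1 and at 3581, 3592 and 3728 FPKM in sgNC. The groups did not overlap. In reads the members held 0.263% ± 0.00767 of all assigned reads in the libraries labelled sgOTUD1 and 0.202% ± 0.00344 in sgNC (SD, n = 3 each). Summed over their parents, the level was 16307 ± 466 FPKM in the libraries labelled sgOTUD1 and 10332 ± 547 FPKM in sgNC (SD, n = 3 each). Of all FPKM on cytosolic ribosomal protein genes and members together, the members made up 16.1% ± 0.157 in the libraries labelled sgOTUD1 and 16.9% ± 0.464 in sgNC. In reads the same share was 3.36% ± 0.00698 in the libraries labelled sgOTUD1 and 3.72% ± 0.102 in sgNC, since members have short exons. In total RNA of a culture, a change in the RNA per cell and a change in the mix of cells cannot be told apart.

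Tested gene by gene, 45 members were higher in the libraries labelled sgOTUD1, 4 were lower and 46 were not called (limma on log2(FPKM + 1), Benjamini-Hochberg adjusted p under 0.05 over 14658 genes). Across all tested genes 31.2% were called higher and 24.7% lower. The median log2 fold change was 0.42 over the members and 0.03 over all tested genes. The groups did not overlap for 48 members that were higher and 5 that were lower, against 34.9% and 29.1% of all tested genes. Since the minimum was set on the mean of both groups, a low copy with reads in 1 group could enter only by being high there, and the counts describe the members that passed. In sgNC 12 members had a mean below 0.5 FPKM, of which RPL29P14, RPS7P3, RPS12P31, RPS3AP3 and RPL26P30 were called higher. In the libraries labelled sgOTUD1 3 had, of which RPS12P2 was called lower. Values of these 6 are a description only. Of 879 other detected pseudogenes, 183 were higher and 132 lower (median 0.05). Of the 552 processed ones among them, 137 were higher and 66 lower (median 0.13). Of 12 tested ribosomal protein pseudogenes whose symbols fall outside the pattern, 5 were higher and 2 lower (median 0.37).

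Among genes outside the pattern, short ones were also called higher more often than lower, as were all tested genes. Of 2115 other tested genes with exons under 1000 nt, the size of 86 of the members, 435 were higher and 244 lower (median 0.09). These are 20.6% and 11.5%, against 31.2% and 24.7% of all tested genes. The 134 protein-coding ones had a median of 0.26, with 58 higher and 24 lower, and include mitochondrial genes such as MT-CO3, which was lower. Over all tested genes the log2 fold change and exon length had a Spearman rho of -0.25. When a trend with exon length, estimated on nuclear protein-coding genes, was divided out, 21 members were higher and 17 lower. All 21 were among the 45, 23 of the 45 were not called and 1, RPS2P46, was called lower. Of the calls made on members, 91.8% were higher before and 55.3% after that correction. Of the calls made on all genes, 55.9% were higher before and 40.4% after it. Of all 14658 tested genes 3146 were called higher after it and 4645 lower, beside 21 and 17 of the 95 members. The median log2 fold change went from 0.42 to 0.08 over the members and from 0.03 to -0.07 over all tested genes. The trend is a function of annotated exon length, which is longer for a parent than for its copy. It was fitted on genes of at least 5 FPKM, ribosomal protein genes among them, and lengths beyond their range were set to its ends. Only 134 protein-coding genes under 1000 nt were tested, some of them mitochondrial, so few genes set the trend at the lengths of most members. How much of the members' change it accounts for was not tested further. Messenger RNAs of the mitochondrial genome were lower for 13 of 13 genes, with a median of -1.26, and their part in these results was not tested.

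The parents moved one way. Of 48, 46 were called higher and 0 lower by limma, and the median of their log2 fold changes was 0.71. At an unadjusted p under 0.05 the number lower was 0 as well. The 2 without a call were RPS23 and RPL36A. RPS23 was at 29.2, 37.8 and 34.5 FPKM in the libraries labelled sgOTUD1 and at 32.5, 40.5 and 46.1 FPKM in sgNC (log2 fold change -0.22, limma adjusted p = 0.258). RPL36A was at 3.93 ± 0.319 FPKM in the libraries labelled sgOTUD1 and 3.69 ± 0.293 FPKM in sgNC (SD, n = 3 each). All 33 tested ribosomal protein genes with no detected copy were higher, with a median of 0.69.

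**Figure D1:**
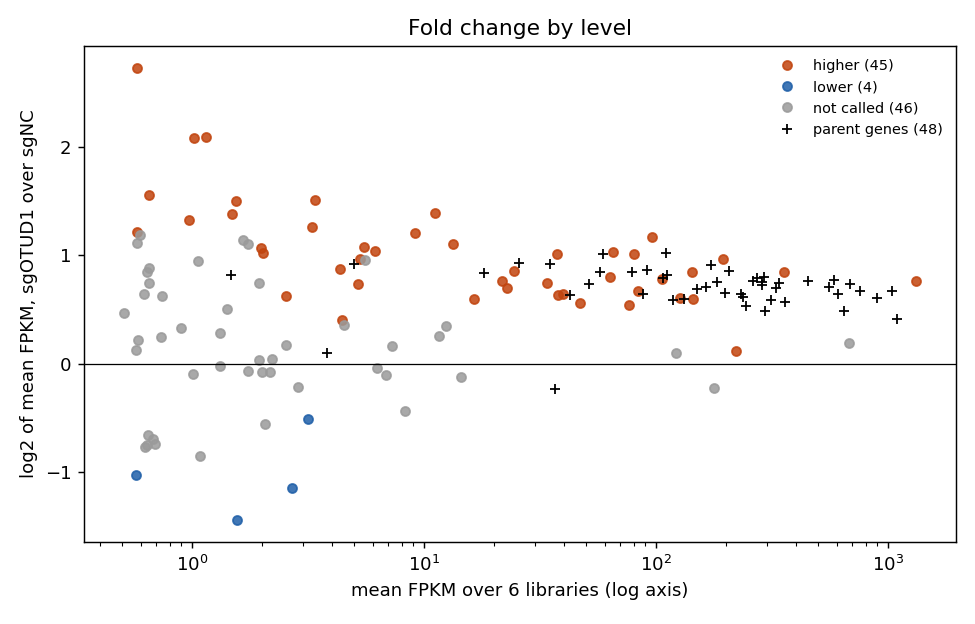
Log2 of the ratio of mean FPKM in the libraries labelled sgOTUD1 to that in sgNC (vertical axis) against mean FPKM over 6 libraries (horizontal, log axis) for 95 pseudogenes, coloured by the limma call, and for 48 parents (crosses). The 4 members called lower all lie under 5 FPKM, and the members spread more widely than the parents, most of all at low levels.

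Level and call went together. Of 41 members at a mean of 5 FPKM or more, 30 were higher and 0 lower by limma, at a median of 0.67 (log2 fold change). Of all genes tested at that level, 47.6% were called higher and 23.9% lower. At an unadjusted p under 0.05 none of the 41 was lower. With voom on reads 1 was called lower, in TPM and with median-ratio rescaling 4 each (RPL41P1, RPL29P19, RPL24P4 and RPL23AP82), and with the length correction 8, against 15 higher. Of 54 under 5 FPKM, 15 were higher and 4 lower (median 0.24). There were 26 members with fewer than 10 reads per library on average, where counting error is large.

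The 5 members of highest level held 58.3% of all reads on members. RPL39P3 (ENSG00000235174, chr6:73373108-73373263) led them. RPL39, its parent, encodes a small protein that lines the exit tunnel. RPL39P3 stood at 1589, 1651 and 1742 FPKM in the libraries labelled sgOTUD1 and at 1009, 973 and 953 FPKM in sgNC. The groups were far apart, at 0.76 on the log2 scale (SE 0.04, limma adjusted p = 1.6e-05). With the length correction the fold was 0.20 and the adjusted p 0.06. RPL39 itself was at 318, 323 and 344 FPKM in the libraries labelled sgOTUD1 and at 189, 188 and 205 FPKM in sgNC, so the copy was listed at 506% of its parent in the libraries labelled sgOTUD1 and 505% in sgNC. In reads the order was the reverse, with a mean of 11532 on RPL39 and 4251 on RPL39P3 in the libraries labelled sgOTUD1, since the exons of RPL39 join to 2141 nt and those of the copy to 156 nt. Every 50-nt window of RPL39P3 also occurs in another gene.

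RPL9P9 (chr15:82372196-82372912) was the other member far above its parent. RPL9 encodes a large subunit protein. RPL9P9 had 454, 457 and 463 FPKM in the libraries labelled sgOTUD1 and 259.5, 252 and 252 FPKM in sgNC, which limma put at 0.85 on the log2 scale (SE 0.03, adjusted p = 3.32e-06). Replicates differed by little and the groups were clearly apart. RPL9 had 49.4, 53.4 and 52.4 FPKM in the libraries labelled sgOTUD1 and 31.7, 32.8 and 35.3 FPKM in sgNC. In mean FPKM 5 members exceeded their parent in the libraries labelled sgOTUD1 and 4 did in sgNC. RPS7P1 was one in the libraries labelled sgOTUD1 only, at 105.6% of RPS7, against 93.8% in sgNC. RPL22P1 stood at 100.8% of RPL22 in the libraries labelled sgOTUD1 and 122.5% in sgNC, and RPS10P3 at 140.02% of RPS10 in the libraries labelled sgOTUD1 and 287.7% in sgNC. RPS10 itself was low, at 1.89 ± 0.0986 FPKM in the libraries labelled sgOTUD1 and 1.07 ± 0.195 FPKM in sgNC, and 39.4% of its exon length is shared on the same strand with the annotated readthrough gene RPS10-NUDT3. The same holds for 24.8% of RPL17 and 8.40% of RPL36A, which were low as well. The sources used here do not give how reads in shared exons were counted.

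RPS2P5 and RPS2P46, copies of the gene of a small subunit protein near the messenger RNA entry, did not follow that pattern. RPS2P5 had 646, 794 and 733 FPKM in the libraries labelled sgOTUD1 and 605, 638 and 664 FPKM in sgNC, and the groups overlapped. Its log2 fold change was 0.18 (limma adjusted p = 0.0799), and with the length correction it was -0.31 with an adjusted p of 0.00249. RPS2P46 (chr17:19445970-19446852) had 228, 227 and 234 FPKM in the libraries labelled sgOTUD1 and 214, 213 and 208 FPKM in sgNC. These groups did not overlap, and RPS2P46 was called higher at a log2 fold change of 0.12 (limma adjusted p = 0.0127), but the sign turned in TPM (-0.03), with median-ratio rescaling (-0.02) and with the length correction (-0.38). RPS2 had 1200.2, 1274 and 1251 FPKM in the libraries labelled sgOTUD1 and 892, 896 and 1020.5 FPKM in sgNC, with a log2 fold change of 0.41 (limma adjusted p = 0.000846). The third copy, RPS2P55, was at 1.32 ± 0.537 FPKM in the libraries labelled sgOTUD1 and 1.34 ± 0.365 FPKM in sgNC.

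RPL41P1 and RPL41P5 hold the same 78 bases, printed above, and gave different values. RPL41P1 had 176, 139.9 and 173 FPKM in the libraries labelled sgOTUD1 and 189.5, 169 and 215 FPKM in sgNC. The groups overlapped (log2 fold change -0.23, limma adjusted p = 0.155). RPL41P5 had 46.2, 67.1 and 54.1 FPKM in the libraries labelled sgOTUD1 and 34.0, 42.1 and 37.4 FPKM in sgNC. Here every library labelled sgOTUD1 was above every sgNC library, and RPL41P5 was called higher at 0.54 (limma adjusted p = 0.022), a call that was lost in TPM, with median-ratio rescaling and with the length correction. RPL41 had a mean of 932 FPKM in the libraries labelled sgOTUD1 and 585 FPKM in sgNC.

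**Figure D2:**
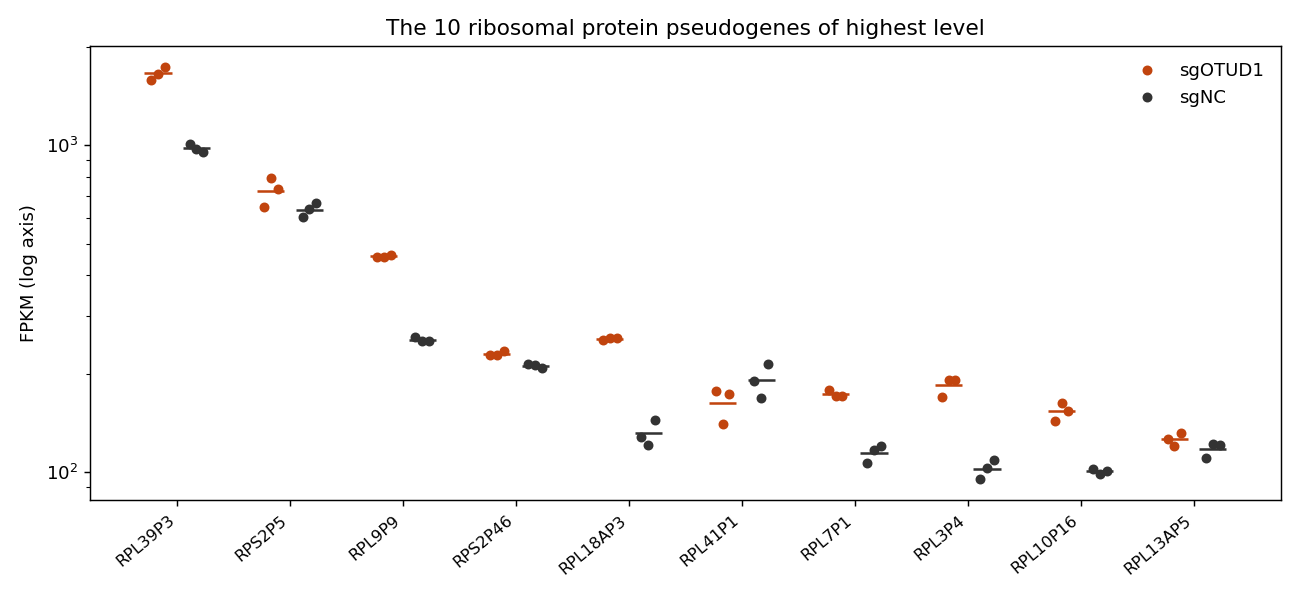
FPKM (log axis) of the 10 members of highest level in each library, with the libraries labelled sgOTUD1 on the left of each pair and sgNC on the right, and horizontal lines at the group means (n = 3). RPL39P3 and RPL9P9 show groups far apart, whereas those of RPS2P5, RPL41P1 and RPL13AP5 overlap.

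The others among the 10 highest were mostly higher. RPL18AP3, from a large subunit protein gene, had 254, 257 and 257 FPKM in the libraries labelled sgOTUD1 and 128, 121 and 145 FPKM in sgNC (log2 fold change 0.96, limma adjusted p = 2.91e-05). It lies in an intron of TXNRD1, a thioredoxin reductase gene, on the same strand. TXNRD1 was higher as well, at a mean of 79.0 FPKM in the libraries labelled sgOTUD1 and 34.7 FPKM in sgNC. RPL3P4, a partial copy of the gene for RPL3 at the peptidyl transferase centre, averaged 184 ± 12.1 FPKM in the libraries labelled sgOTUD1 and 102 ± 6.94 FPKM in sgNC (log2 fold change 0.84, limma adjusted p = 5.84e-05). RPL7P1 and RPL10P16 had log2 fold changes of 0.60 each, with limma adjusted p of 7.46e-05 and 7.66e-05, which the length correction brought to 0.08 each and out of the call. RPL10P16 shares 13.8% of its length with exons of AC010422.3 on the same strand, which was at a mean of 0.02 FPKM. RPL13AP5 had 126, 120.4 and 132 FPKM in the libraries labelled sgOTUD1 and 110.3, 122 and 121 FPKM in sgNC, and was not called (0.10, limma adjusted p = 0.141). Its parent RPL13A, known also as a subunit of a complex that silences inflammatory transcripts, was higher at a log2 fold change of 0.60.

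All 4 detected copies of RPS7 were called higher, although RPS7P3 passed the minimum through the libraries labelled sgOTUD1 alone. RPS7P1 had 112, 99.6 and 110.1 FPKM in the libraries labelled sgOTUD1 and 55.6, 49.8 and 54.2 FPKM in sgNC. RPS7P11 had 27.6, 27.0 and 30.4 FPKM in the libraries labelled sgOTUD1 and 18.2, 18.4 and 15.7 FPKM in sgNC. In both the groups were apart by more than the replicate spread. RPS7P10 had 14.9, 18.5 and 14.8 FPKM in the libraries labelled sgOTUD1 and 5.99, 7.10 and 5.31 FPKM in sgNC. RPS7P3, the most diverged of the 4 at 95.7% identity, had 1.86, 1.49 and 1.58 FPKM in the libraries labelled sgOTUD1 and 0.292, 0.479 and 0.394 FPKM in sgNC. These rest on 18, 14 and 15 reads in the libraries labelled sgOTUD1 and 3, 5 and 4 reads in sgNC, where the mean was below the minimum. The limma log2 fold changes were 1.00, 0.67, 1.26 and 0.93 in the same order, beside 0.83 for RPS7. For the first 3 the adjusted p ran from 2.1e-05 to 0.000245. With TPM, median-ratio rescaling and voom on reads all 4 stayed higher, and with the length correction 3 did, RPS7P11 being lost. All 3 copies of RPL7 were called higher too, at 0.60 for RPL7P1, 0.79 for RPL7P9 and 0.88 for RPL7P23, beside 0.72 for RPL7. Copies of RPS3A, a small subunit protein gene, were higher for 4 of 6 and those of RPL21 for 2 of 3. The 4 include RPS3AP3, which also passed the minimum through the libraries labelled sgOTUD1 alone. For comparison, 31.2% of all tested genes were called higher, and 47.6% of those at 5 FPKM or more.

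In other families the copies split. Of 7 copies of RPL23A, RPL23AP42 was higher, RPL23AP64 was lower and 5 were not called. RPL23AP42 had 2.93, 3.01 and 2.08 FPKM in the libraries labelled sgOTUD1 and 1.56, 1.18 and 1.09 FPKM in sgNC (log2 fold change 0.68, limma adjusted p = 0.00326, lost with the length correction). RPL24P8 was at 10.4, 12.9 and 15.2 FPKM in the libraries labelled sgOTUD1 and at 4.88, 5.63 and 6.15 FPKM in sgNC (1.07, limma adjusted p = 0.000825). RPL24P4 was at 8.27, 5.85 and 6.97 FPKM in the libraries labelled sgOTUD1 and at 8.71, 7.93 and 11.95 FPKM in sgNC. The groups of RPL24P4 overlapped and it was not called. Of 4 copies of RPL13A 1 was higher, and of 3 copies of RPS10 none was called by limma, nor at an unadjusted p under 0.05, while voom on reads called 1 lower. Beside these counts, 31.2% of all tested genes were called higher and 24.7% lower.

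By the fold of mean FPKM, 7 of the 8 largest increases among members called higher were of copies under 5 FPKM, RPS7P10 being the other. RPS3AP3 had 2, 5 and 5 reads in the libraries labelled sgOTUD1 and 0, 2 and 0 in sgNC. It passed the minimum through the libraries labelled sgOTUD1, a choice that favoured a higher value there, and its values are a description only. RPL29P14 had 10, 17 and 12 reads in the libraries labelled sgOTUD1 and 2, 6 and 2 in sgNC, a 4.25-fold difference of mean FPKM that the minimum also favoured. The groups of RPL29P14 did not overlap, and those of RPS3AP3 both held a library with 2 reads. RPL34P18, RPL7P23, RPS12P31 and RPL5P4 differed 2.60-fold to 2.94-fold, of which RPS12P31 also passed through the libraries labelled sgOTUD1 alone. The limma adjusted p was 0.00124 for RPL34P18, 0.00233 for RPL7P23 and 0.000376 for RPL5P4. RPL5, the parent of RPL5P4, binds ribosomal RNA in the particle that restrains MDM2, and RPL29, RPL34 and RPS12 encode other ribosomal proteins.

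Only 4 members were called lower. RPL23AP64 (ENSG00000240970, chr11:119003012-119003446) had 5, 8 and 5 reads in the libraries labelled sgOTUD1 and 19, 22 and 12 in sgNC. In FPKM these are 0.690, 1.13 and 0.703 in the libraries labelled sgOTUD1 and 2.47, 2.81 and 1.58 in sgNC, a log2 fold change of -0.82 (limma adjusted p = 0.00467). RPL37AP1 (chr20:44466564-44466842), a copy of the gene of a large subunit zinc finger protein, had 7, 7 and 9 reads in the libraries labelled sgOTUD1 and 16, 16 and 23 in sgNC (-0.81, limma adjusted p = 0.00208). The groups did not overlap in either. RPS12P2 had 2, 1 and 2 reads in the libraries labelled sgOTUD1 and 3, 4 and 4 in sgNC (-0.36), a call lost with voom on reads, and it passed the minimum through sgNC alone. RPL32P3 (chr3:129382922-129399655), the longest member at 4504 nt and one of the 2 unprocessed ones, had 206, 198 and 176 reads in the libraries labelled sgOTUD1 and 306, 295 and 291 in sgNC (-0.39, limma adjusted p = 0.00127). It shares 3 nt with an exon of AL449212.1 on the opposite strand. The 4 stayed lower with TPM, median-ratio rescaling and the length correction.

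**Figure D3:**
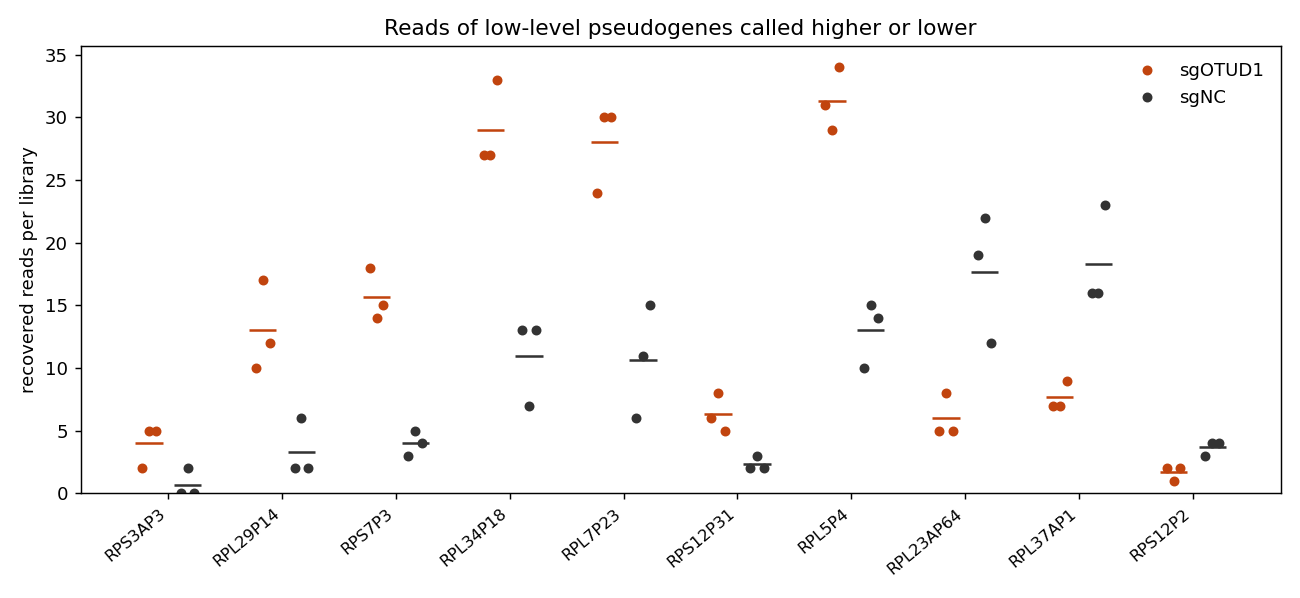
Reads per library recovered from the FPKM values for members under 5 FPKM among the largest increases (7 on the left) and for 3 of the 4 called lower (right), with the libraries labelled sgOTUD1 left of sgNC in each pair and lines at the group means (n = 3). All points lie at 34 reads or fewer, and RPS12P2 has at most 4.

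Each member was then set against its parent by the ratio of their levels, log2(FPKM + 0.1) of the copy minus that of the parent, in a limma fit over 460 pseudogene and parent pairs of any family. The ratio was higher in the libraries labelled sgOTUD1 for 2 members and lower for 9, and 84 were not called. RPS7P3 among the rises and RPS12P2 and RPL13P5 among the falls passed the minimum through 1 group alone. The choice of members favoured their change, and their ratios are a description only. Over all pairs 5.00% were higher and 6.52% lower. The fold of 44 members was above that of the parent and of 51 below it. Across members the log2 fold change of the copy and of its parent had a Pearson r of 0.10 and a Spearman rho of 0.16 (n = 95, as a description, since copies share parents and libraries). Leaving out 1 library at a time left 0 to 1 members higher and 1 to 5 lower, so most of these calls rest on all 6 libraries.

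RPS23P8 had the larger of the 2 rises against a parent. It had 7.64, 8.02 and 9.27 FPKM in the libraries labelled sgOTUD1 and 3.42, 4.89 and 3.81 FPKM in sgNC, whereas RPS23 was not called. It stood at 24.6% of RPS23 in the libraries labelled sgOTUD1 and at 10.2% in sgNC. The log2 ratio changed by 1.26 (SE 0.19, limma adjusted p = 0.0213), and the adjusted p was 0.0436 to 0.0703 with 1 library left out. RPS7P3 changed by 1.01 against RPS7, a call that was lost without any of the 6 libraries and with an offset of 1 or 0.5 or the length correction.

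The 9 falls of ratio included all 4 members called lower. RPL37AP1 stood at 1.56% of RPL37A in the libraries labelled sgOTUD1 and at 5.40% in sgNC, a log2 change of -1.72 (SE 0.20, limma adjusted p = 0.00938) that kept its call without each single library. RPL23AP64 stood at 0.592% of RPL23A in the libraries labelled sgOTUD1 and 2.42% in sgNC (-1.92, limma adjusted p = 0.024). RPL32P3 changed by -1.20 (limma adjusted p = 0.0213) and RPS12P2 by -1.57. The other 5 were not called by themselves, while each parent was called higher. RPL41P1 stood at 17.5% of RPL41 in the libraries labelled sgOTUD1 and 32.7% in sgNC (-0.90, limma adjusted p = 0.0235). RPL24P4 stood at 4.93% of RPL24 in the libraries labelled sgOTUD1 and 11.8% in sgNC (-1.24, limma adjusted p = 0.024). RPL29P19 was at 13.1, 13.7 and 14.8 FPKM in the libraries labelled sgOTUD1 and at 13.1, 15.7 and 16.4 FPKM in sgNC, while RPL29 had a mean of 426 FPKM in the libraries labelled sgOTUD1 and 255 FPKM in sgNC (-0.86, limma adjusted p = 0.0337). RPS10P7 and RPL13P5 changed by -1.46 and -1.45, both under 1 FPKM. RPL13P5 shares 31.5% of its length with exons of LRRC23 on the same strand, which was at 1.13 FPKM in both groups.

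**Figure D4:**
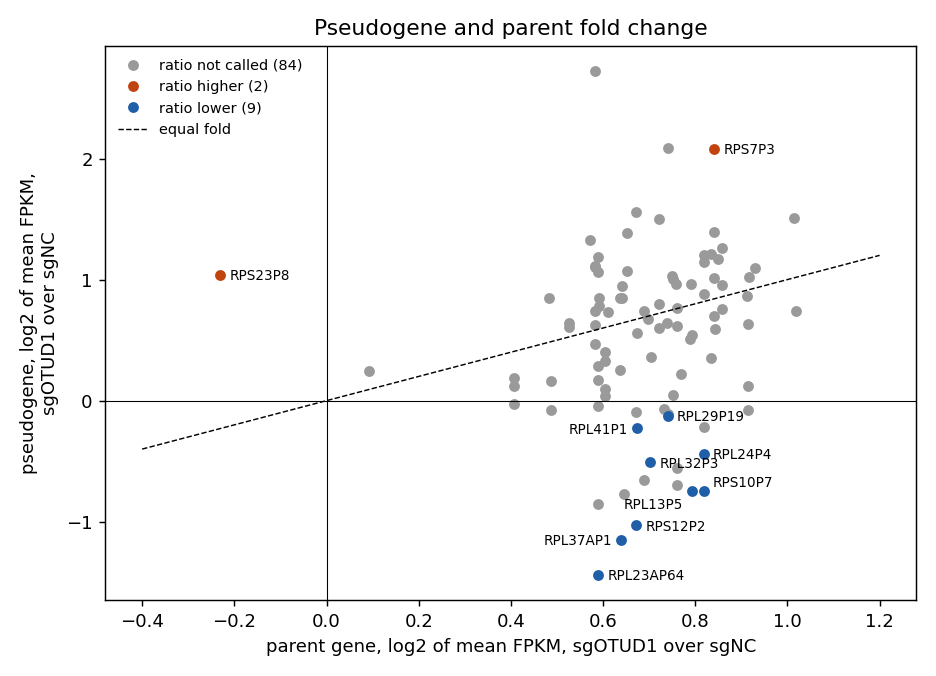
Log2 of the ratio of mean FPKM in the libraries labelled sgOTUD1 to that in sgNC for each of 95 pseudogenes (vertical axis) and for its parent (horizontal axis), with the dashed line at equal folds. Named points are the 2 members whose ratio to the parent was called higher and the 9 called lower. The parents lie between -0.23 and 1.02 and the copies spread from -1.44 to 2.72.

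Identity to the parent went with the level of a copy. Among 37 members of at least 98% identity over the aligned part, the median level was 39.8 FPKM, and it was 2.86 FPKM for the 21 from 95 to 98%, 0.741 FPKM for the 22 from 90 to 95% and 1.32 FPKM for the 15 below. Over 95 members, identity and log2 level had a Pearson r of 0.57 and a Spearman rho of 0.73, as a description. Of the 37 closest copies, 28 were higher and 0 lower by limma, with 0 lower at an unadjusted p under 0.05. With voom on reads 1 was called lower, in TPM and with median-ratio rescaling 2 each, and with the length correction 6, against 13 higher. Of the 15 most diverged ones, 4 were higher and 2 lower, and the median of the log2 fold changes was -0.04. A mean of 5 FPKM or more was reached by 33 of the 37 and by 1 of the 15, so identity and level cannot be separated in these counts. Of all genes tested at that level 47.6% were called higher and 23.9% lower. A median of 79.4% of the 50-nt windows of the 37 closest copies also occurs in another gene, and 2.59% for the 15 most diverged ones. The sources used here do not give whether and where reads matching several genes were counted, so a copy's own RNA and reads of its parent cannot be told apart from these values. 5 members, RPL39P3, RPL41P1, RPS28P7, RPL41P5 and RPL21P16, have no 50-nt window of their own, and 4 of the 5 were higher. RPS28P7 is one of them, at 132, 140.2 and 128 FPKM in the libraries labelled sgOTUD1 and 49.2, 57.2 and 71.6 FPKM in sgNC.

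**Figure D5:**
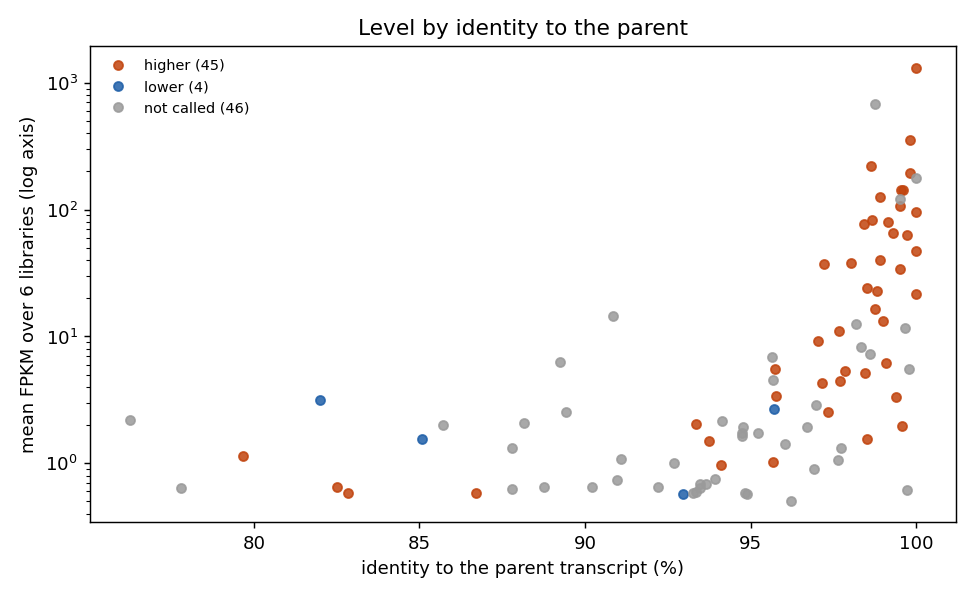
Mean FPKM over 6 libraries (log axis) against the percent identity of each of 95 members to its parent transcript, coloured by the limma call. Levels over 20 FPKM occur only to the right of 97% identity, and the 4 members called lower lie between 82.0% and 95.7%.

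A reading frame at least as long as that of the parent was held by 36 members, at a median of 19.05 FPKM, and 23 were higher. The other 59 had a median of 2.06 FPKM, with 22 higher and all 4 of the members called lower. Across all tested genes 31.2% were called higher, and 47.6% of those at 5 FPKM or more. RPS2P5, RPL18AP3 and RPS7P1 keep a full frame, and RPL23AP64 does not. No protein was measured.

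By position, 42 members lie outside other genes, 23 in an intron on the same strand, 20 in an intron on the opposite strand, 7 over an exon on the opposite strand and 3 over an exon on the same strand. Intron here means that the spans of member and gene overlap with no shared exon. Higher calls numbered 17 of 42, 14 of 23, 12 of 20, 1 of 7 and 1 of 3, against 31.2% of all tested genes. Of 16 members with such a same-strand overlap with a gene at 1 FPKM or more, 8 were called higher, and of their 8 host genes 4 were higher and 4 lower. For RPL32P3, among the 16 and called lower, the nesting is reversed, since the small nucleolar RNA gene SNORA7B lies inside the member. RPL22P1, for example, was higher at a limma log2 fold change of 0.62 inside MECOM, a transcription factor gene that was lower at -0.85. RPL5P4 was higher at 0.79 inside ZMYM4, which was lower at -0.71. RPS3AP3 lies in RBL1, a gene of the retinoblastoma family, which was lower at -0.42. RPS7P3 lies in PCNX2, which was higher at 0.18.

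Copies over an exon of a gene of higher level were RPL23AP82, RPS18P9, RPL39P5, RPS10P5, RPL13P5 and RPL32P3. RPL39P5 shares 41.6% of its length with AMOTL2 on the same strand, which was at 95.2 FPKM in the libraries labelled sgOTUD1 and 74.9 FPKM in sgNC. RPL39P5 was at 0.904 ± 0.311 FPKM in the libraries labelled sgOTUD1 and 0.588 ± 0.199 FPKM in sgNC, not called. RPL23AP82, a long transcribed copy, was at 6.18 ± 0.207 FPKM in the libraries labelled sgOTUD1 and 6.35 ± 0.294 FPKM in sgNC and overlaps RABL2B on the opposite strand over 3.93% of its length. RPS18P9 overlaps KATNA1 and RPS10P5 overlaps FAM110A, both on the opposite strand, and neither was called.

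At the edge of the minimum, the members just inside were RPS3AP25 with a mean of 0.508 FPKM, RPL22P2 with 0.573 FPKM and RPS12P2 with 0.573 FPKM. Just outside were RPS6P25 with 0.490 FPKM, RPS27P16 with 0.476 FPKM and RPS20P4 with 0.465 FPKM.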

How the data were processed

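RNA sequencing of 6 T24 libraries was analysed from 1 table of FPKM per gene, deposited by the authors. Per the submitters' processing notes it was made with featureCounts 1.5.0-p3 and DESeq2 1.20.0 on hg38. The aligner, strand setting and handling of reads matching several genes are not stated there. All 58735 gene IDs were found in GENCODE 29, and 58708 symbols were equal. FPKM times GENCODE 29 exon length gave whole reads for 100.0% of values (tolerance 0.001 reads), with 16697370 to 17191933 reads per library. Intervals cover counting error only.

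Genes with a mean of at least 0.5 FPKM (14658) were tested on log2(FPKM + 1) with limma 3.58.1 (lmFit, eBayes with trend and robust options, R 4.3.3), which understates changes of low genes, and p-values were Benjamini-Hochberg adjusted over all of them. Member to parent ratios were tested with an offset of 0.1 over 460 pairs. The length correction was a natural spline of log2 exon length, fitted on nuclear protein-coding genes of at least 5 FPKM. Identity was taken from BLAST 2.17.0 alignments. The fits were tested on simulated data. The members and lists were chosen with earlier results of these data known. Genes were named by rule: OTUD1, the 10 highest members, the 8 largest increases and 8 largest decreases called, the 5 largest ratio changes each way, members at the threshold and over other exons, and their parents. RPS7P1, RPS7P11, RPL24P4, RPL24P8, RPL29P19, RPL22P1, RPL23AP42, RPL41P5, RPS28P7 and other copies outside that rule were chosen after their values were seen. Alternatives were other filters, offsets and scalings (TPM, median ratio, length), voom on recovered reads, a replicate term and leaving out each library.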

Additional observations from a re-analysis of the deposited data

How the results depend on the processing

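With the length correction 21 of the 95 members were higher and 17 lower. Of all 14658 tested genes it called 3146 higher and 4645 lower. With TPM and with median-ratio rescaling 8 members each were lower. A fit of genes of at least 5 FPKM, without rescaling, gave 0 lower. The 3 rescalings lower the median of all genes from 0.03 to -0.10 with TPM and to -0.07 with each of the others. The cause of the other shifts was not tested. With the length correction 19 of the 95 members changed sign, 3 of them called higher before, and 5 each did in TPM and with median-ratio rescaling. Among members named by rule the reversed values were -0.31 for RPS2P5, -0.38 for RPS2P46, -0.43 for RPL13AP5, -0.020 for RPS3AP25 and -0.093 for RPL22P2 with the length correction, -0.034 and -0.052 for RPS2P46 and RPL13AP5 in TPM, and -0.021 and -0.038 for them with median-ratio rescaling. With 1 library left out RPL22P2 ran from -0.084 to 0.38 and RPS18P9 from -0.11 to 0.031, both turning without replicate 1 of sgNC. Leaving out 1 library at a time gave 38 to 47 members higher and 3 to 5 lower. For the member to parent ratio it gave 0 to 1 higher and 1 to 5 lower. No filter gave 0 and 0 ratio calls, a threshold of 0.01 gave 0 higher and 1 lower, and the length correction gave 1 and 15. A minimum of 5 FPKM gave 5 lower, an offset of 1 gave 22 and an offset of 0.5 gave 14. OTUD1 was at 0.17 to 0.24 with 1 library left out, at 0.061 in TPM and at 0.071 with median-ratio rescaling, where it was not called. The members' share of ribosomal protein FPKM, 16.1% in the libraries labelled sgOTUD1 and 16.9% in sgNC, was 3.36% and 3.72% in reads. With the replicate number as a block, 49 members were higher and 4 lower, 1 parent was lower, and 0 ratios were higher and 0 lower. Same-numbered libraries deviated together with correlations of 0.0016, -0.051 and -0.0007, so the numbers do not pair them.

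Depth limits the 26 members with fewer than 10 reads per library on average, for which few reads decide a call.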
